A study of Mus musculus with 3 samples.

Results

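Serpins are a family of proteins most of which inhibit proteases, and their transcripts were examined in the cornea of the mouse, the clear tissue at the front of the eye. The members were the protein-coding genes of the deposited count table whose symbol is Serpin followed by a clade letter from a to i, a number and at most 1 further letter. This gave 34 genes of the 21760 in the table: 9 of clade A, 16 of clade B, 3 of clade E, 2 of clade F and 1 each of clades C, G, H and I. RefSeq lists 63 such protein-coding genes for the mouse, and those outside the 34 were not analysed here. Of the 34, 22 had at least 20 counts in at least 1 library and are called measured below.

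RNA was sequenced in 3 libraries of whole cornea, with 1 library per group. Sham mice had an incision in the area of the lacrimal glands, which were not touched. In excision mice the lacrimal gland, the main source of watery tears, was removed, which is a surgical model of dry eye. The third group was given eyedrops 3 times a day with PNU-282987, a compound that activates the nicotinic acetylcholine receptor of the α7 type. Whether their glands had been removed as well is not stated in the labels. The labels give no strain, age or sex, no length of treatment, and do not state whether a library pools several mice.

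A serpin presents an exposed loop as bait. When the target protease cuts the loop, the serpin changes shape and traps the protease in a covalent complex, so each molecule is used once. Clade A and clades C to G are mostly secreted inhibitors of leukocyte, clotting, fibrinolytic and complement proteases. Clade B members lack a classical signal peptide, stay largely inside cells and are typical of stratified epithelia and leukocytes. Some serpins inhibit no protease: Serpinh1 is a chaperone for collagen, and Serpinf1 encodes a secreted factor that limits vessel growth.

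Total counts were between 37692972 and 39616004 per library. Levels are in CPM, the counts of a gene relative to its library's total, scaled with trimmed-mean (TMM) factors, and a fold is the ratio of scaled counts with its 95% interval from the 2 counts alone (exact conditional binomial, Clopper-Pearson). A gene was called higher or lower when the fold was at least 2 and the interval excluded equal levels. The spread between animals cannot be estimated without replicates, so no test across animals was made and each ratio compares 2 libraries. Values given in threes are in the order sham, excision, PNU-282987. Reads carry no molecular identifiers, so the intervals cover counting error only. In bulk tissue, fewer cells of a type and less RNA per cell cannot be told apart. The corneal label was checked with Krt12, the cornea-specific keratin, which was present at 39479, 30579 and 42092 CPM, and with Pax6, the eye-field transcription factor gene, at 587, 564 and 579 CPM. Transcripts of lens (Cryaa at 244, 4.71 and 226 CPM) and of mucus-secreting cells (Muc5ac with 1, 11 and 2980 counts) differed widely between the libraries.

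Serpin transcripts of the cornea came mainly from clade B. All 34 members together took 1158, 1134 and 1254 CPM, and clade B held 84.4%, 85% and 89.2% of these counts. The 4 most abundant members, Serpinb5, Serpinb11, Serpinb8 and Serpinb1a, held 79%, 76.3% and 78.7%. Serpinb5 (gene ID 20724), the epithelial protein maspin, had 20118, 15302 and 17933 counts. Compared per length of exon sequence, the level of Serpinb5 averaged 168 CPM per kb over the 3 libraries, followed by Serpinb11 at 95.7 and Serpinb1a at 45.8 CPM per kb. Serpinb8 (30.2 CPM per kb) and Serpinf1 (28.9) were next, close to each other, and Serpinf1 stood above Serpinb8 in sham (32.6 against 27.1) and below it in the other libraries. Serpinb3a averaged 23.1 CPM per kb, but from 4.02 in sham to 21.6 in excision and 43.6 in PNU-282987. Serpina3g averaged 0.173 CPM per kb, from 0.0243 in sham to 0.355 in PNU-282987, so its place near the low end held for its mean and for sham but not for PNU-282987, where Serpine2 (0.0653) and Serpini1 (0.163) lay below it.

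**Figure D1:**
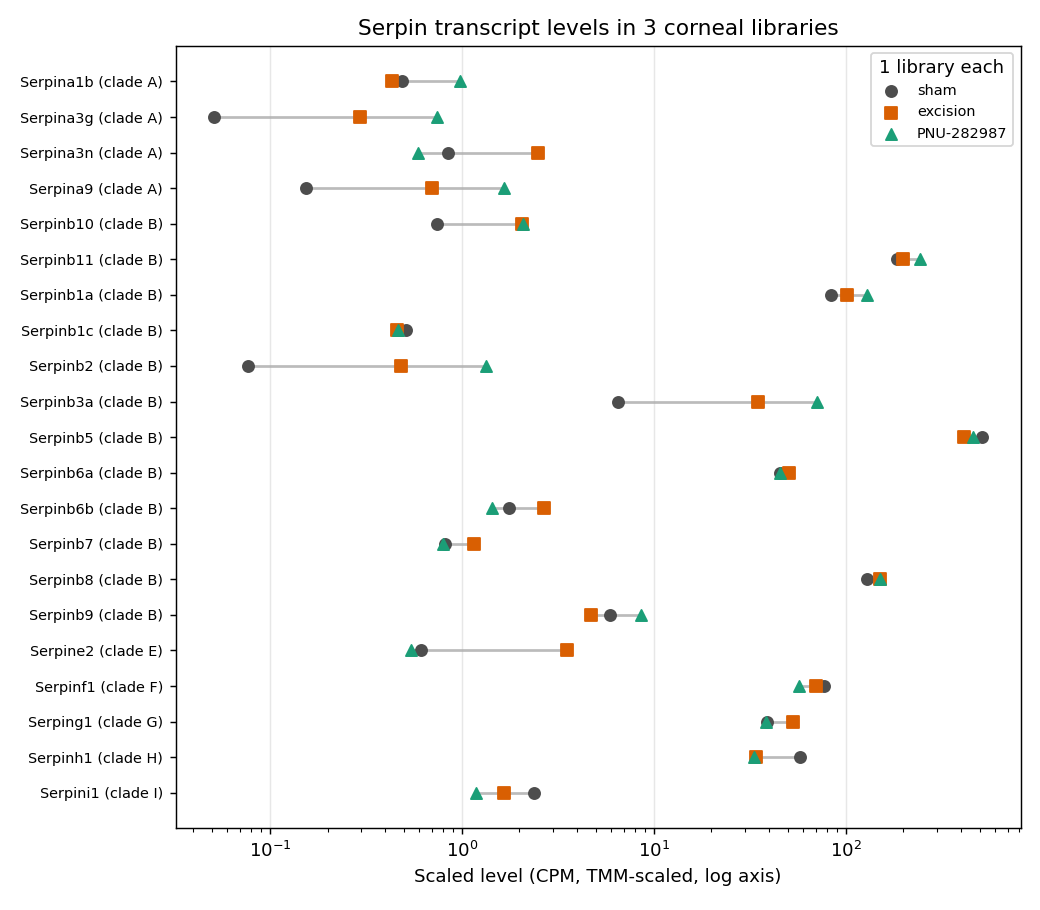
Level of 21 measured serpin genes in each library, in TMM-scaled CPM on a log axis, with 1 point per library and a grey line from the lowest to the highest. Serpinb5 lies highest (515, 412 and 462 CPM), and Serpinb3a is the member above 10 CPM in any library whose points lie farthest apart (6.55, 35.2 and 71.1 CPM).

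The abundant members differed little, and the called members were mostly scarce. Between excision and sham, 7 of the 22 measured members were called higher and none lower (31.8%), namely Serpinb3a, Serpinb2, Serpinb10, Serpina3n, Serpina3g, Serpina9 and Serpine2, where 9.49% of all 14180 measured genes were called (4.01% higher, 5.48% lower). Between PNU-282987 and sham, 6 were higher (Serpinb3a, Serpinb2, Serpinb10, Serpina3g, Serpina9 and Serpina1b) and 2 lower (Serpini1 among them), or 36.4%, against 7.54% of all genes (2.58% higher, 4.96% lower). Between PNU-282987 and excision, 5 were higher (Serpinb3a, Serpinb2, Serpina3g, Serpina9 and Serpina1b) and 3 lower (Serpine2 and Serpina3n among them), or 36.4%, against 9.52% of all genes (3.90% higher, 5.62% lower). These comparisons share libraries in pairs, so their counts are not independent of one another. Serpina1b, Serpina3g and Serpinb2 reached 20 counts in the PNU-282987 library alone, and Serpinb1c in sham alone, so the minimum itself favoured a difference for these 4. Among the 12 members with at least 100 counts in a library, 2, 2 and 3 were called in the 3 comparisons, Serpinb3a each time, where the same rule called 4.81%, 2.85% and 4.47% of 11431 genes. These shares lie below those over all measured genes, so calls were more frequent among scarce genes. Scarce genes were also a larger part of the members, since 12 of 22 reached 100 counts, against 11431 of 14180 genes. The shares over all genes are therefore not matched to the members' counts. At the minimum of 100 counts, Serpine2 passed through the excision library alone, so that minimum itself favoured a difference for it. The median log2 ratio of the 22 was 0.37, -0.01 and 0.00 in these comparisons, where the median over all measured genes was within 0.01 of 0. In all, 10 members were called in at least 1 comparison and 12 in none. The share of all genes called in at least 1 comparison was not computed, so these 2 counts have no background.

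**Figure D2:**
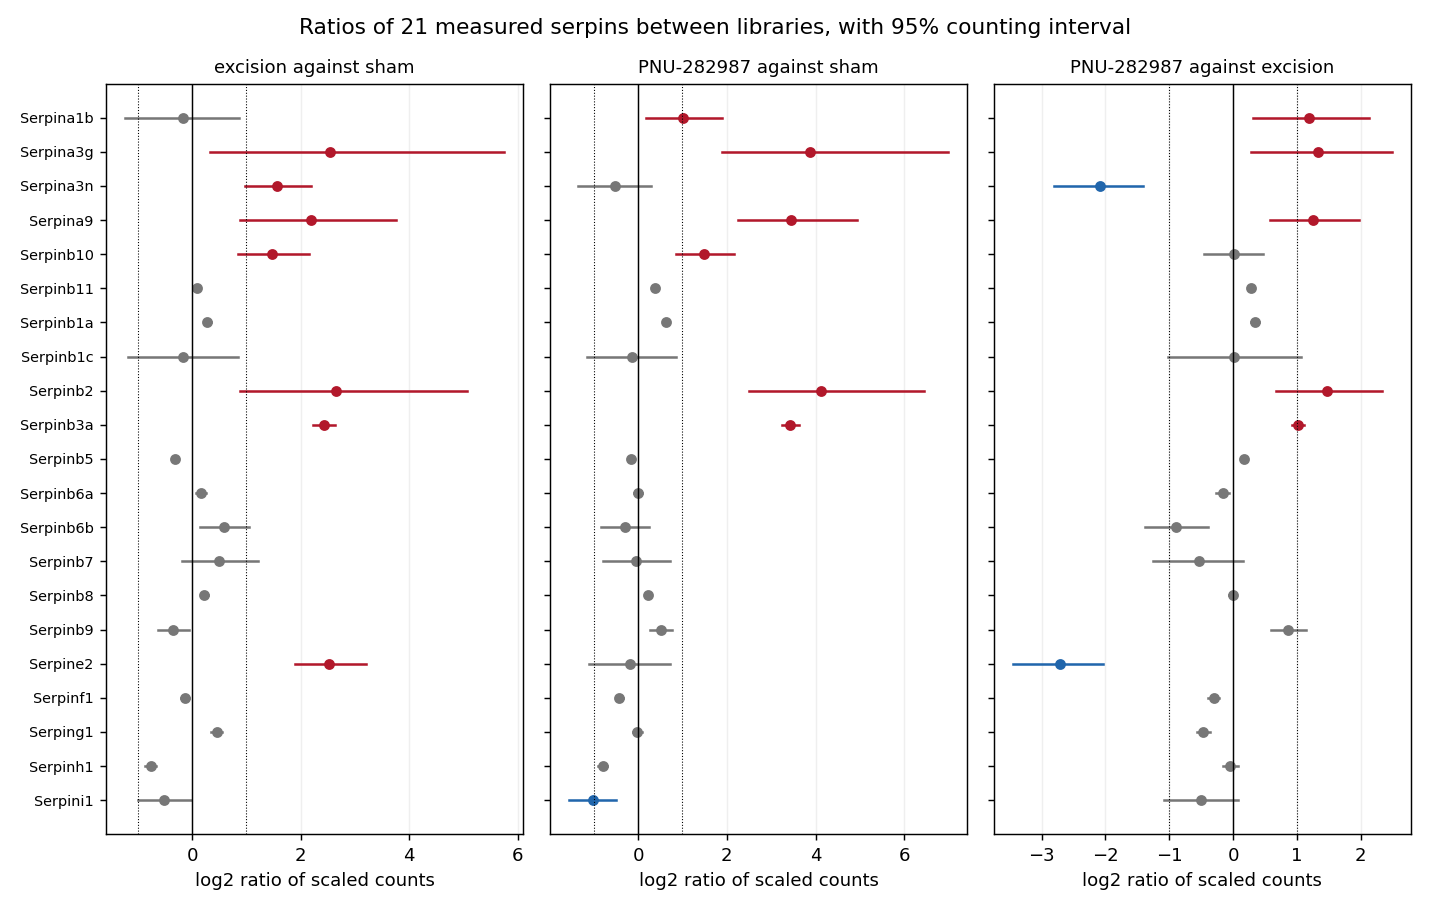
Log2 ratio of scaled counts for 21 measured serpins in the 3 comparisons, with 95% counting intervals. Red marks members called higher and blue those called lower, dotted lines mark 2-fold, and grey members were not called. The excision panel holds 7 red points and no blue ones, and Serpina3n and Serpine2 are blue in the panel of PNU-282987 against excision.

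Of the abundant or moderately abundant clade B genes, Serpinb3a differed most. Serpinb3a (gene ID 20248), a mouse counterpart of the squamous cell carcinoma antigens, which inhibit cysteine and serine proteases, had 256 counts in sham, 1308 after excision and 2761 with PNU-282987. It was lowest in sham and highest in PNU-282987. Excision was 5.38-fold higher than sham (95% interval 4.70 to 6.17), PNU-282987 10.8-fold higher than sham (9.54 to 12.4) and 2.02-fold higher than excision (1.89 to 2.16). Serpinb2 (gene ID 18788), plasminogen activator inhibitor 2, had 3, 18 and 52 counts. Its excision level was 6.31-fold above sham (1.84 to 33.5), and its PNU-282987 level 17.4-fold above sham (5.64 to 87.3) and 2.76-fold above excision (1.59 to 5.02). Serpinb10 (gene ID 241197), known as bomapin and described in blood-forming cells, had 29, 77 and 81 counts. It was 2.79-fold higher than sham in excision (1.80 to 4.44) and 2.81-fold higher in PNU-282987 (1.82 to 4.45), and the last 2 libraries were not distinguishable at this depth (1.01-fold, 0.727 to 1.39).

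These genes lie among clade B neighbours that were not called. In RefSeq's gene order on chromosome 1 the cluster runs Serpinb5, Serpinb12, Serpinb13, Serpinb3a, Serpinb3d, Serpinb3b, Serpinb3c, Serpinb11, Serpinb7, Serpinb2, Serpinb10 and Serpinb8, of which 7 are members here. Serpinb2 and Serpinb10 are adjacent in that order, and Serpinb7 and Serpinb8 flank them. Serpinb7, a keratinocyte serpin also called megsin, had 32, 43 and 31 counts, with no pair of libraries past 1.45-fold. Serpinb8, an inhibitor of the proprotein convertase furin, had 5070, 5657 and 5892 counts, and was 1.17-fold above sham in both excision (1.13 to 1.22) and PNU-282987 (1.13 to 1.21). Serpinb11, which inhibits trypsin-like proteases in the mouse, had 7259, 7369 and 9439 counts and was 1.31-fold higher in PNU-282987 than in sham (1.27 to 1.35).

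**Figure D3:**
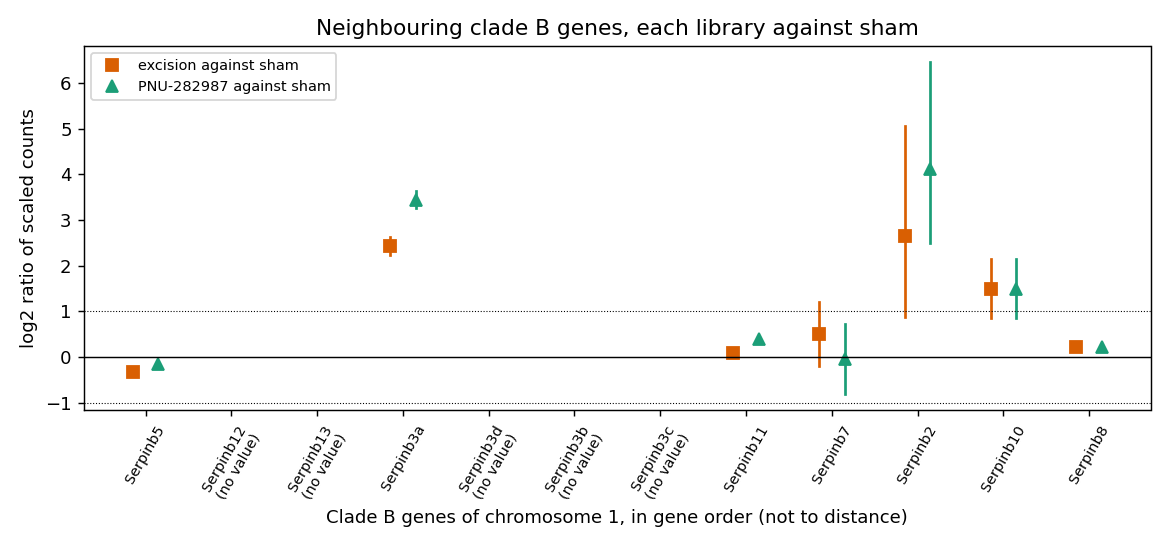
Log2 ratio to sham of the 7 members in the clade B cluster of chromosome 1, drawn in gene order with equal spacing, with 95% counting intervals; dotted lines mark 2-fold. Serpinb3a, Serpinb2 and Serpinb10 lie above 2-fold in both libraries, while Serpinb5, Serpinb11, Serpinb7 and Serpinb8 lie between the dotted lines.

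The 250 bases before the annotated start are shown for the 3 genes of this cluster that were called, and for the uncalled neighbour Serpinb8, to set side by side the start regions of neighbours whose ratios differed. They are RefSeq sequences of build GRCm38.p6, written 5′ to 3′ on the gene's strand, at chr1:107052304-107052553, minus strand, for Serpinb3a, chr1:107511173-107511422, plus strand, for the upstream of 2 listed Serpinb2 starts, chr1:107528753-107529002, plus strand, for Serpinb10 and chr1:107589756-107590005, plus strand, for Serpinb8. Capitals mark matches to AP-1 (TGANTCA) or to the TATA box (TATAAA), read on both strands.
Serpinb3a: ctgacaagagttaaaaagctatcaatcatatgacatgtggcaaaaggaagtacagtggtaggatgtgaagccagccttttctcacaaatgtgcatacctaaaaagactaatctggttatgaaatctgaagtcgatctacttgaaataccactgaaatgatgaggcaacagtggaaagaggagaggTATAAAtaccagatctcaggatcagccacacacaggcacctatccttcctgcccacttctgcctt
Serpinb2: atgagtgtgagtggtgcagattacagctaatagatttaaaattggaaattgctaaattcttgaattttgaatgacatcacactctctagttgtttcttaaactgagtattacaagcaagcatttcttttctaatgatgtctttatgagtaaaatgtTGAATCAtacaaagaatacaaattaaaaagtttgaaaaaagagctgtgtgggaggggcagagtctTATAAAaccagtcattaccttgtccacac
Serpinb10: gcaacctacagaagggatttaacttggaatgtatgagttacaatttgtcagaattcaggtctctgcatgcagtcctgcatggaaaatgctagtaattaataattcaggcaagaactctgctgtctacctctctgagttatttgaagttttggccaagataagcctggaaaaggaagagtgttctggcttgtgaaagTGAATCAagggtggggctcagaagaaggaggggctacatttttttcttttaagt
Serpinb8: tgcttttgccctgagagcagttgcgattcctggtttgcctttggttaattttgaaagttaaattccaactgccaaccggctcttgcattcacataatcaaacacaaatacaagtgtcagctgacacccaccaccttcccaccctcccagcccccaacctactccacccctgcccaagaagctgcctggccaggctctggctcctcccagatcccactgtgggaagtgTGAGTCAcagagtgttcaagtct
An AP-1 match, the element bound by FOS and JUN dimers, was found before 6 of the 7 members of the cluster, all except Serpinb3a, where 6.75% of the 32851 promoters in the table hold one in the same window. The match occurred both before called genes (Serpinb2, bases 157 to 163, and Serpinb10, bases 197 to 203) and before uncalled ones (Serpinb5, Serpinb11, Serpinb7 and Serpinb8). A TATA box match was found before Serpinb3a (bases 186 to 191), Serpinb2 (bases 222 to 227) and Serpinb7, where 12.4% of promoters hold one. A match is a description of letters, not evidence of binding.

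Markers of goblet and gland secretory cells were mostly highest in the PNU-282987 library. Of 15 measured, 3 were higher (Muc5ac, Agr2 and Krt19) and 1 lower (Spdef) after excision than in sham. Of all measured genes, 4.01% were higher and 5.48% lower in that comparison. Muc5ac, with 1 and 11 counts in sham and excision, passed the minimum through the PNU-282987 library alone. Of the 15, 12 were higher and none lower in PNU-282987 than in sham, where 2.58% of all measured genes were higher. Of these 12, 7 reached 20 counts in the PNU-282987 library alone, so the minimum itself favoured a difference for them. The list summed to 8181, 9969 and 12183 CPM, most of it from the water channel gene Aqp5 (6000.3, 6558 and 6886 CPM), which was called in no comparison. Krt13, a keratin of non-cornified epithelia such as the conjunctiva, made up 2022, 3091 and 4619 CPM of the sum. Krt15, a keratin of basal and limbal epithelium, had 1688, 3713 and 6207 CPM and was the 1 of 16 corneal epithelium markers called higher in either comparison with sham. Aqp5, Krt13 and Krt15 were picked on sight of their values. Serpinb3a, Serpinb2, Serpina3g and Serpina9 follow the same order of libraries as Krt13 and Krt15. Serpinb11 (186, 199 and 243 CPM) and Serpinb1a (84.3, 102 and 130.2 CPM), which were not called, follow it too. So does Serpinb10 (0.743, 2.07 and 2.09 CPM), whose last 2 libraries were not distinguishable. Among the markers, Aqp5 follows this order as well, whereas Krt19 (75.3, 184 and 176 CPM), Spdef (0.563, 0.108 and 2.42 CPM) and Krt12 do not. With 3 libraries, few orders are possible. The part of tissue that differs in these markers in the ratios of these serpins was not tested.

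The remaining clade B members were not called in any comparison. Serpinb1a (gene ID 66222), an inhibitor of the neutrophil proteases elastase, cathepsin G and proteinase 3, had 3291, 3798 and 5056 counts. It was 1.55-fold higher in PNU-282987 than in sham (1.48 to 1.61), short of 2-fold. Its paralogue Serpinb1c had 20, 17 and 18 counts. Serpinb5 was 1.25-fold lower in excision than in sham (1.22 to 1.28) and 1.12-fold lower in PNU-282987 (1.09 to 1.14). Serpinb6a, an inhibitor of cathepsin G and trypsin-like proteases, had 1775, 1888 and 1758 counts and its PNU-282987 and sham levels were not distinguishable at this depth (interval of the fold 0.939 to 1.07). Serpinb6b had 69, 99 and 56 counts and was 1.85-fold lower in PNU-282987 than in excision (1.32 to 2.61).

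Serpinb9 (gene ID 20723), the inhibitor of the killer-cell protease granzyme B, had 232, 174 and 332 counts. It was lowest in excision, 1.27-fold below sham (1.04 to 1.55), and PNU-282987 was 1.82-fold above excision (1.51 to 2.20), also under the call threshold. Gzmb itself, a gene picked on sight of its counts, stood at 1, 17 and 8, below the minimum in every library. T and NK cell markers summed to 0.589, 11.2 and 1.34 CPM, so Serpinb9 was lowest in the library where they were highest.

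Proteases were compared by general lists, not limited to those that clade B members act on. The epithelial and lysosomal ones were nearly all uncalled, and those of leukocyte granules were mostly highest in sham. The leukocyte granule proteases, 5 of 13 measured, had 3 genes lower and 1 higher in both excision and PNU-282987 against sham. Of all measured genes, 5.48% and 4.96% were lower in these 2 comparisons, and 4.01% and 2.58% higher. Elane, neutrophil elastase, had 602, 132 and 156 counts, Prtn3, proteinase 3, had 299, 67 and 87, and Ctsg, cathepsin G, had 102, 23 and 31. The higher gene was Gzma, with 3, 82 and 14 counts. Gzma and the other genes named below to account for counts of 5 or fewer were picked on sight of their values. Sham was thus the highest library for these targets of Serpinb1a and the lowest for Serpinb1a itself, within the under-2-fold range given above. Neutrophil markers, a list that also holds Elane, were mostly lower in excision and PNU-282987 than in sham. Called lower were 7 of 9 measured in excision and 6 of 9 in PNU-282987, with none higher. The list summed to 83.5, 41.2 and 70.2 CPM. Between PNU-282987 and sham, S100a9 (718, 34 and 617 counts), Ltf (920, 995 and 1486) and Lcn2 (270, 206 and 270) were not called. Of the 9 measured cysteine cathepsins, none was called in either comparison with sham, and Ctss (797, 1435 and 734 counts) was lower in PNU-282987 than in excision. Of 19 measured kallikreins and other epithelial serine proteases, none was called in any of the 3 comparisons.

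Clade A was scarce in all 3 libraries, and its members went different ways. Serpina3n (gene ID 20716), a mouse relative of α1-antichymotrypsin that rises in inflammation, had 33, 93 and 23 counts. Excision was the high library, 2.96-fold above sham (1.97 to 4.55), and PNU-282987 was 4.23-fold below excision (2.66 to 7). Sham and PNU-282987 were not distinguishable at this depth (1.43-fold, 0.813 to 2.54). Serpina3g (gene ID 20715), an intracellular inhibitor of cathepsins, had 2, 11 and 29 counts: PNU-282987 was 14.6-fold above sham (3.69 to 126) and 2.52-fold above excision (1.22 to 5.59), and excision 5.79-fold above sham (1.26 to 53.7). Serpina9 (gene ID 71907), known as centerin and described in germinal-centre B cells, had 6, 26 and 65 counts. It was 4.56-fold above sham in excision (1.84 to 13.5), 10.9-fold in PNU-282987 (4.74 to 30.8), and 2.39-fold higher in PNU-282987 than in excision (1.5 to 3.92). Serpina1b (gene ID 20701), an α1-antitrypsin gene, had 19, 16 and 38 counts and was called higher in PNU-282987 than in sham (2.01-fold, 1.13 to 3.69) and than in excision (2.27-fold, 1.24 to 4.36). α1-antitrypsin is chiefly a liver product. Hepatocyte markers summed to 22.5, 24.7 and 23.6 CPM, and of the 3 measured Ttr, the transthyretin gene, was called higher in PNU-282987 than in sham (2.48-fold, 1.74 to 3.59) and than in excision (2.53-fold, 1.76 to 3.69), as Serpina1b was. Apoa1 (568, 658 and 467 counts) and Trf (247, 202 and 334) were not called, and Alb, the albumin gene, had 0, 2 and 0 counts. The part of such RNA in the Serpina1b ratios was not tested.

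The window before Serpina3g, chr12:104235897-104236146, plus strand of GRCm38.p6, is shown because it holds a GAS match (TTCNNNGAA, the element bound by STAT dimers, searched on both strands) at bases 218 to 226, in capitals. Among the 30 members found in the promoter table, which have 35 windows, 7 members hold a GAS match in at least 1 window. Counted by window rather than by gene, 7.02% of all promoters hold one. The 7 include the paralogues Serpina3f, Serpina3g and Serpina3i, with similar sequence around the match, so these are not separate cases. No member holds the E-box CACGTG.
Serpina3g: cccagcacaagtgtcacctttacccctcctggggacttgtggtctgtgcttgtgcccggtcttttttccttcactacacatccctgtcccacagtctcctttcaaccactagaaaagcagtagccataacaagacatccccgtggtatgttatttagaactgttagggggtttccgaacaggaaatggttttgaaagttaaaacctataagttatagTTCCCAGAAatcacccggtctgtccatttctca
Serpina3g was highest in PNU-282987, while a list of interferon-stimulated genes summed to 1259, 4862 and 1209 CPM. Serpina3n, for which none of these motifs was found in the window, was highest in excision. The part of interferon or of the GAS match in the levels of these serpins was not tested. Serpina9, Serpinb1a and Serping1 were not matched in the promoter table.

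Clade E holds inhibitors of plasminogen activators and thrombin. Serpine2 (gene ID 20720), protease nexin 1, had 24, 131 and 21 counts. Excision was the high library: it was 5.74-fold above sham (3.70 to 9.28), PNU-282987 was 6.53-fold below it (4.10 to 10.9), and sham and PNU-282987 were not distinguishable (1.14-fold, 0.606 to 2.15). Serpine3 had 0, 0 and 1 counts.

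The plasminogen activators, which Serpine2 inhibits, differed less than Serpine2 in both comparisons with excision. Plau, urokinase, had 398, 290 and 250 counts, and Plat, tissue plasminogen activator, had 334, 352 and 260. Neither was called, and both were picked on sight of their counts. Between PNU-282987 and sham, where Serpine2 was not distinguishable, Plau was 1.58-fold lower (1.35 to 1.86) and Plat 1.28-fold lower (1.08 to 1.51). Of the 8 measured genes of the plasminogen system 2 were lower in excision than in sham, 1 was lower in PNU-282987 than in sham and none was higher in either. Of all measured genes, 5.48% and 4.96% were lower in these 2 comparisons. The urokinase receptor gene Plaur had 58, 24 and 17 counts, and Thbd, thrombomodulin, had 817, 170 and 426. Vascular and lymphatic markers summed to 7.37, 9.54 and 6.44 CPM, with Flt4 called higher and Kdr lower, of 6 measured members, in excision than in sham, and none called in PNU-282987 against sham. Macrophage markers summed to 53.4, 108 and 66.5 CPM (8 of 13 measured called higher in excision than in sham, where 4.01% of all genes were). The part of these cells in the Serpine2 ratios was not tested.

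Outside clades A, B and E, Serpini1 was the one member called. Serpini1 (gene ID 20713), neuroserpin, an inhibitor of tissue plasminogen activator made by neurons, had 93, 62 and 46 counts, and PNU-282987 was 2.01-fold below sham (1.4 to 2.93). Serpinh1 (gene ID 12406), the collagen chaperone HSP47, had 2265, 1269 and 1293 counts. Sham was the high library, with excision 1.70-fold lower (1.58 to 1.82) and PNU-282987 1.74-fold lower (1.63 to 1.87). Collagens and collagen-modifying enzymes, all 22 of the list measured, had 5 members lower (Col12a1, P4ha1, Plod2, Fkbp10 and P3h1) and none higher in excision than in sham and 3 lower (Col3a1, Col5a1 and Col5a3) and none higher in PNU-282987 than in sham, with median log2 ratios of -0.39 and -0.55. Of all measured genes, 5.48% and 4.96% were lower in these 2 comparisons. Col1a1 and Col1a2, abundant clients of HSP47 that were picked on sight of their counts, had 10154, 9332 and 7653 counts and 11081, 7046 and 7068. By the naming rule, Col12a1 had 6612, 2148 and 3998 counts, Col5a1 1081, 669 and 489 and the prolyl hydroxylase gene P4ha1 887, 320 and 552. Keratocyte markers, from the stromal cells that make these collagens, summed to 1771, 964 and 1278 CPM, and 6 of 12 were called lower in excision than in sham and none in PNU-282987. Their median log2 ratios to sham were -0.92 and -0.62. In PNU-282987, Smoc1 (1.99-fold lower) and Kera (1.98-fold lower) lay just under the threshold. Of the keratocyte sum Col8a2, also a collagen of the corneal endothelium's basement membrane and picked on sight of its values, had 332, 68.8 and 204 CPM. Corneal endothelium markers summed to 798, 130.5 and 624 CPM, with 7 of 8 measured called lower in excision than in sham and 1 in PNU-282987. The part of keratocyte and endothelial RNA in the Serpinh1 ratios was not tested.

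Serpinf1 (gene ID 20317), pigment epithelium-derived factor, had 3000, 2613 and 2217 counts, 1.35-fold lower in PNU-282987 than in sham (1.27 to 1.42). Serping1 (gene ID 12258), the C1 inhibitor of complement and contact proteases, had 1514, 1966 and 1486 counts. Excision was its high library, 1.37-fold above sham (1.28 to 1.46) and above PNU-282987 by 1.38-fold (1.29 to 1.48), and none of these ratios was called. Coagulation and complement genes, 9 of them measured, had calls between excision and sham alone. Called higher in excision were C2 (22, 64 and 36 counts) and Cfb (18, 53 and 29), and called lower was Masp1 (259, 81 and 149). Over all measured genes, that comparison called 4.01% higher and 5.48% lower.

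Of clades A and B, which hold most of the members, the sum of clade A differed past 2-fold from sham and that of clade B did not. Clade A had 1.89, 4.50 and 4.76 CPM, and the last 2 were 2.37-fold (1.80 to 3.17) and 2.51-fold (1.91 to 3.34) above sham. Its excess over sham came mainly from Serpina3n in excision (1.66 of 2.60 CPM) and from Serpina9 in PNU-282987 (1.52 of 2.87 CPM), where Serpina3n was 0.592 CPM against 0.845 in sham. Clade I, with Serpini1 as its single member, has the values given above. Clade B had 977, 963 and 1118 CPM, 1.01-fold lower in excision than in sham and 1.14-fold higher in PNU-282987 (1.13 to 1.16).

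Within clade B, the differences in CPM came from Serpinb3a and from abundant genes with ratios under 2-fold, and little from the scarce called genes Serpinb2 and Serpinb10. Between excision and sham, Serpinb5 was 103 CPM lower in excision, against gains of 28.7 CPM for Serpinb3a, 22.6 for Serpinb8, 18.0 for Serpinb1a and 12.6 for Serpinb11. Between PNU-282987 and sham, the clade's difference of 141 CPM was made of 64.5 CPM for Serpinb3a, 57.2 for Serpinb11, 45.9 for Serpinb1a and 21.9 for Serpinb8, with Serpinb5 at 462 CPM against 515 in sham. Serpinb2, at 17.4-fold, contributed 1.26 CPM. Without Serpinb3a, a sum chosen later, on sight of the values, clade B had 971, 928 and 1047 CPM.

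**Figure D4:**
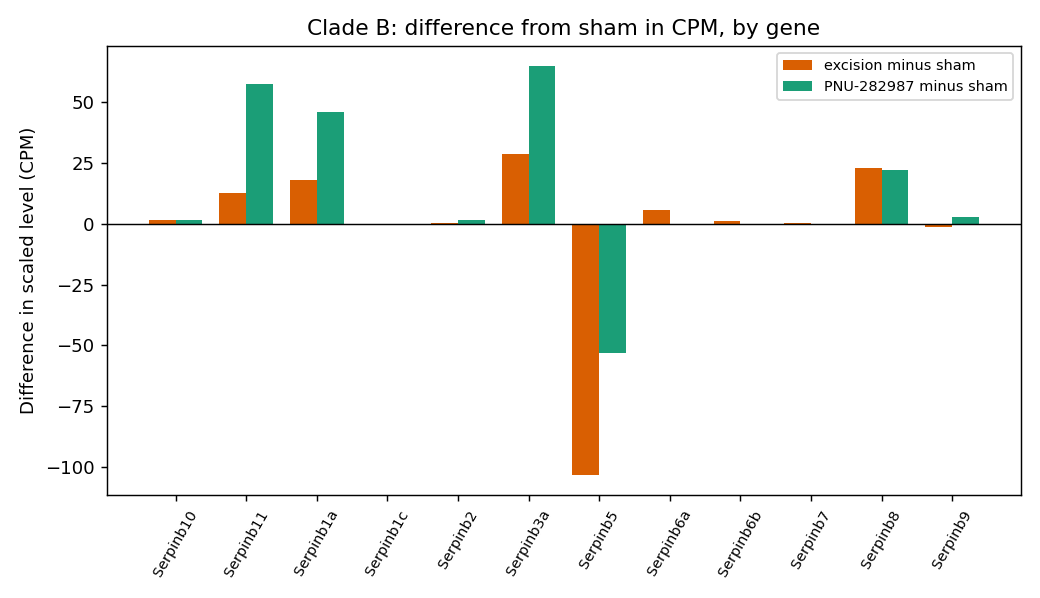
Difference in scaled level from sham, in CPM, for each measured clade B gene in the excision and PNU-282987 libraries, with 1 library per group and no error bars. The tallest bars belong to Serpinb5 (103 CPM lower in excision) and Serpinb3a (64.5 CPM higher in PNU-282987), and those of Serpinb2 and Serpinb10 stay within 1.4 CPM of 0.

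The 12 members that were not measured had at most 19 counts in a library: Serpina1e, Serpina1f, Serpina3c, Serpina3f, Serpina3i, Serpinb1b, Serpinb6c, Serpinb9b, Serpinb9c, Serpinc1, Serpine3 and Serpinf2. Serpinc1, antithrombin, had 0, 1 and 0 counts, and where the count was 0 the depth allows for as many as 3, or 0.0768 CPM in sham and 0.0773 in PNU-282987. Close copies can share reads, so the share of each member's distinct transcript windows that also occur in another gene's transcripts was taken from GENCODE M21. For Serpina1b 14.8% of 100-base windows were shared, with Serpina1a, Serpina1c, Serpina1d and Serpina1e, and for Serpina3g 3.67%. For Serpinb3a 6.53% were shared, with the gene model Gm8080, and for Serpina3n 0.204%. No 100-base window of Serpinb2, Serpinb10, Serpina9 or Serpine2 occurred in another gene. With 50-base windows the shares were larger, at 29.5% for Serpina1b, 15.9% for Serpina3g, 15% for Serpinb3a and 6.9% for Serpina3n. They were 2.88% for Serpinb10 and 1.24% for Serpina9, and no such window of Serpinb2 or Serpine2 was shared. With paralogues of 1 number summed, the 5 Serpina3 genes stayed past the threshold in excision against sham (38 and 109 counts, 3.02-fold, 2.07 to 4.49), whereas in PNU-282987 (62 counts) they were not called against either library. The 3 Serpina1 genes summed (30, 32 and 58 counts) were not called in any comparison.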

How the data were processed

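RNA of whole cornea was sequenced from 3 groups, with 1 library each. TRIzol extraction and the VAHTS Universal V6 library kit are named per the labels' protocols. The authors deposited counts of reads per gene as whole numbers, used unchanged. HTSeq and R 3.2.0 appear in the submitters' processing notes. The sources used here do not give the aligner, build, annotation, strand setting or treatment of shared reads. Columns were matched to samples by title.

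TMM factors were computed over all 21760 genes with edgeR 4.0.16 in R 4.3.3. Ratios, intervals and calls used Python 3.11.15 with SciPy 1.17.1, for the 14180 genes that reached 20 counts in a library, and plots used matplotlib 3.10.9. In a ratio, a count of 0 was set to a floor of 3. The scheme was tested on simulated counts. No p-value was computed. Alternatives were total-count scaling, DESeq2 1.42.0 size factors, other count minimums and paralogues summed. Exon lengths and shared windows (50 and 100 bases, same strand) came from GENCODE M21, and the 250-base windows from RefSeq GRCm38.p6, with 30 of 34 members matched.

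Members and lists were chosen with earlier results of these data known. Of the members, 1 is counted but not reported here. The other measured members are named, and those called, or among the 5 most abundant, are given with all 3 counts. Of each pathway list up to 3 called genes with the most counts are named, and of each marker list up to 2 markers. Genes named beyond this, to account for small counts or for a sum or because they were called, were picked on sight of their values. Among them are Agr2, Krt19, Spdef and Krt15.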

Additional observations from a re-analysis of the deposited data

How the results depend on the processing

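With 1 library per group, no replicate could be left out. No paired analysis was possible because each group holds a single library. Raising the minimum from 20 to 100 counts left 12 members, of which 2, 2 and 3 were called in the comparisons of excision with sham, PNU-282987 with sham and PNU-282987 with excision, in place of 7, 8 and 8. The minimum only leaves genes out, so all of these were also called at the lower minimum by construction. Serpine2 passed the higher minimum through the excision library alone. With paralogues summed, 5 units were called for PNU-282987 against excision. A minimum of 10 counts, no minimum, and DESeq2 size factors left the 3 counts at 7, 8 and 8. Scaling to total counts shifted the ratios to sham by -0.073 and -0.080 on the log2 scale, and ended the call of Serpina1b for PNU-282987 against sham (ratio 1.90). Of 66 ratios of single members, the direction of Serpinb8 for PNU-282987 against excision turned under DESeq2 size factors (ratio 1.0005), and no other direction turned under either scaling. Clade sums kept their direction and side of the threshold under both scalings and, for clade B, without Serpinb3a. Depth limits Serpina3g and Serpinb2 most, with 2 and 3 counts in sham.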

Other observations

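Protease inhibitors of other families were compared in the same way. Of 17 measured Kazal, Kunitz, WAP, cystatin and macroglobulin-type genes, excision against sham gave 3 called higher and 1 called lower, PNU-282987 against sham 2 and 1, and PNU-282987 against excision 1 and 1. Over all measured genes the shares were 4.01% and 5.48%, 2.58% and 4.96%, and 3.90% and 5.62%. The called inhibitors were Wfdc2, Wfdc18, Spink1, Tfpi and Pi16, of which Wfdc18 (5, 36 and 29 counts) and Pi16 (11, 82 and 1) were picked on sight of their counts. The whole list summed to 1873, 1768 and 1737 CPM, in the order sham, excision, PNU-282987. Wfdc2, a WAP-domain protein of secretory epithelia, had 1702, 2171 and 3927 counts in that order and was 2.32-fold higher in PNU-282987 than in sham. Tfpi, the inhibitor of the tissue factor pathway, had 158, 54 and 115 counts, 2.78-fold lower in excision than in sham. Spink1, a trypsin inhibitor, had 23, 49 and 29 counts and was 2.24-fold higher in excision than in sham.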
